A study of Mus musculus with 663 samples.

Results

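The CDK inhibitor genes Cdkn1a, Cdkn1b, Cdkn2a, Cdkn2b, Cdkn2c and Cdkn2d were followed through 6 stages of the mouse XX gonad, as 6 of the 43320 gene names used from the deposited table. They were chosen by name, and none by its level. The cells carried the Nr5a1-eGFP reporter, were of a mixed strain background, and were sorted live for eGFP from XX gonads at embryonic stages E10.5, E11.5, E12.5, E13.5 and E16.5 and postnatal stage P6, the numbers being days. No group was treated, and every group shared the reporter, so cells without reporter signal were not analysed here. The table held 662 cells in 12 captures, a capture being 1 run of a C1 microfluidic chip: 1 capture of 71 cells at E10.5, 2 captures at E11.5, 3 at E12.5 and 2 each at E13.5, E16.5 and P6. The capture was the replicate. The labels do not say whether the captures of a stage stem from different litters, and p-values cover no more than the spread among captures, which can be technical.

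CDK inhibitors are small proteins that hold back the cyclin-dependent kinases which drive a cell from growth into DNA replication and division. The Cip/Kip proteins p21, encoded by Cdkn1a, and p27, encoded by Cdkn1b, bind many cyclin and kinase complexes. The INK4 proteins p16 and p15, p18 and p19, encoded by Cdkn2a, Cdkn2b, Cdkn2c and Cdkn2d, bind the kinases CDK4 and CDK6, which cyclin D activates. In the fetal ovary, p27 is known to mark pregranulosa cells that have left the cell cycle, and Cdkn1a is known in many tissues as a target gene of the tumour suppressor p53.

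Of the 12 captures, 11 had a median depth estimated at 1.891M to 3.204M reads and a median of 3640 to 7976 detected genes. The second E12.5 capture stood apart. Its median depth was estimated at 0.148M reads, and 40 of its 53 cells (75.47%) held a Y-linked transcript although it was labelled XX, against 0 to 4 cells in any other capture. It is kept below, and values without it are given where they change a statement. Nr2f2, a transcription factor gene of interstitial and progenitor cells, was at 1 RPKM or more in 76.4% to 100.0% of cells of the other 11 captures. Foxl2, which encodes a forkhead factor of the supporting lineage, reached 1 RPKM in no cell at E10.5.

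Promoter windows are shown for the members whose values differ most in kind: Cdkn1b, present in most cells, Cdkn1a, present at high level in few cells, and Cdkn2b, listed at 0 in every cell. Each is the RefSeq window of GRCm38.p6 from 250 bases before to 50 after a gene start, written 5′ to 3′ on the gene's strand. Capitals mark matches, on either strand, to 5 letter patterns: GGGCGG (GC box), CCAAT (the CCAAT box), TTTNNCGC (E2F type), TATAAA (the TATA box) and a pair of CATG letters spaced by 6 bases, of the kind found in p53 sites. The last pattern was chosen after the Cdkn1a window had been read.

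Cdkn1b, chr6:134920151-134920450, plus strand: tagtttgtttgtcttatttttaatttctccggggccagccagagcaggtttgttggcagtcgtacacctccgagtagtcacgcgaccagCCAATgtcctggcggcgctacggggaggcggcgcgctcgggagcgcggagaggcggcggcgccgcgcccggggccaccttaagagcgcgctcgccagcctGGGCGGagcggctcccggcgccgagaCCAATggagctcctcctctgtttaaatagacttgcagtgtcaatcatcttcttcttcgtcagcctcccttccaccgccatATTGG
Cdkn1a, upstream start, chr17:29090729-29091028, plus strand: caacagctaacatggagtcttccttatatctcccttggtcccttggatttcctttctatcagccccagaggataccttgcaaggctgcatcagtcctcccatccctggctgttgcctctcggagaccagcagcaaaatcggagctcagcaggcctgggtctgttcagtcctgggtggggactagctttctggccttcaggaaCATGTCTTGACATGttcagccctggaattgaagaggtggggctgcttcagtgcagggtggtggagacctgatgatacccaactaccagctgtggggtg
Cdkn1a, downstream start, chr17:29093519-29093818, plus strand: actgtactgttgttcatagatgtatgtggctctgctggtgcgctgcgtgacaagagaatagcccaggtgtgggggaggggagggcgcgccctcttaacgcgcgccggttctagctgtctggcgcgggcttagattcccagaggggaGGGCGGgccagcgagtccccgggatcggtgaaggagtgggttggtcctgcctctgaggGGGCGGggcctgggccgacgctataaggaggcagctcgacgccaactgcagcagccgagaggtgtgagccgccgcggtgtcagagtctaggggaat
Cdkn2b, chr4:89310983-89311282, minus strand: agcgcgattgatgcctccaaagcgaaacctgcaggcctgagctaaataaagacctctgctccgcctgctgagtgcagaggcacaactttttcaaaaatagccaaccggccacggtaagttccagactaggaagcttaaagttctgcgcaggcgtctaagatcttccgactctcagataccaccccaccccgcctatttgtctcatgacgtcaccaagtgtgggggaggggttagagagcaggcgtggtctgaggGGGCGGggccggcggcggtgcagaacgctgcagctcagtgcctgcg

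The Cdkn1b window held 30 CG dinucleotides, 3 CCAAT boxes and 1 GC box, and the Cdkn2b window held 18 CG dinucleotides and 1 GC box. The downstream Cdkn1a window held 23 CG dinucleotides, 2 GC boxes and no CATG pair. The upstream Cdkn1a window held 2 CG dinucleotides and the CATG pair, a pattern found in 0.712% of the 32851 windows of the table. A median window held 7 CG dinucleotides, and GGGCGG was found in 35.7% of windows, CCAAT in 37.4%, TTTNNCGC in 5.17% and TATAAA in 13.6%. These are descriptions of letters, and no binding was measured here.

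Cdkn2a (chromosome 4, 89274471 to 89294653, minus strand) and its neighbour Cdkn2b (chromosome 4, 89306299 to 89311039, minus strand) were listed at 0 in all 662 cells. A count of 0 in 662 cells allows a share of cells with a read of up to 0.453%, which covers counting error only. Cdkn2a encodes both p16 and the unrelated p19Arf from different reading frames, and the single symbol in the table does not part them. The next gene of the locus, Mtap, which encodes an enzyme of methionine salvage, was detected in 395 of 662 cells (59.67%), and 0 of 15 housekeeping genes checked were listed at 0 in all cells. In all, 16308 gene names of the table were listed at 0 in every cell.

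Cdkn1b (chromosome 6, 134920401 to 134925513, plus strand) was the most widely detected member, with any read in 517 of 662 cells (78.1%) and at least 1 RPKM in 390 (58.91%). RPKM is the number of reads scaled by gene length and by library size. Cdkn2d followed with at least 1 RPKM in 126 cells (19.03%), then Cdkn1a in 106 (16.01%) and Cdkn2c in 18 (2.72%). Of all cells, 192 (29%) held no member at 1 RPKM, 319 (48.19%) held exactly 1, 132 (19.94%) held 2 and 19 (2.87%) held 3.

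The mean level of Cdkn1b over the cells of a capture was 1.99 RPKM for E10.5, 2.83 and 3.20 for E11.5, 10.6, 2.61 and 10.3 for E12.5, 23.95 and 4.33 for E13.5, 15.8 and 12.2 for E16.5, and 11 and 14.2 for P6. The low E12.5 value is that of the shallow second capture, and the E13.5 captures lay further apart than any other pair. Cells at 1 RPKM or more made up 43.66% for E10.5, 28.3% and 43.4% for E11.5, 64.15%, 15.09% and 77.19% for E12.5, 83.02% and 56.6% for E13.5, 80% in each E16.5 capture, and 78.18% and 63.64% for P6. Both E13.5 captures lay above both E11.5 captures in level and share, as did 4176 genes (21.2%) of those tested in level. In limma across 19710 genes the log2 change of Cdkn1b at E13.5 against E11.5 was 1.52 ± 0.82 (SE), and it did not pass (adjusted p = 0.948). No gene was called in this comparison (0%), with 1042 at an unadjusted p under 0.05. The log2 change of Cdkn1b was 0.41 without the first E13.5 capture and 2.64 without the second, the ends of its range over the alternatives.

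Cdkn1a (chromosome 17, 29090976 to 29100727, plus strand), whose exons overlap those of the annotated AC167363.2, was carried by few cells at high level. Its capture means were 0.130 RPKM for E10.5, 8.53 and 10.52 for E11.5, 10.2, 9.30 and 12.2 for E12.5, 15.3 and 5.51 for E13.5, 20.2 and 28.7 for E16.5, and 0.0503 and 1.19 for P6. The P6 captures and the E10.5 capture lay below all captures of the stages between, a pattern that was not counted over all genes. For the narrower pattern of both P6 captures below both E16.5 captures, the share was 17% of the genes tested. At E16.5 14.55% and 20% of cells reached 1 RPKM, and the single highest cell, at 499.5 RPKM in the first capture and 353.1 in the second, gave 45.05% and 30.79% of the summed level. Without the highest cell of each capture the stage means were 7.07 RPKM for E11.5, 7.88 for E12.5, 7.76 for E13.5, 15.8 for E16.5 and 0.0295 for P6.

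Cdkn1a had the largest log2 change of any member in the 4 stage comparisons. At P6 against E16.5 it was -4.05 ± 0.58, with an adjusted p of 0.0558 in limma, which did not pass at 0.05, and 57 of 19710 genes (0.289%) were called in that comparison. The call turned on the settings: the adjusted p was 0.0303 without the series term and 0.0304 without the second P6 capture, and up to 0.455 in the other alternatives. In simulated data of this comparison, a log2 change of 4 was recovered in 43.9% of changed genes and one of 2 in 3.0%, so the stage fits could have missed changes of this size. At E11.5 against the single E10.5 capture its log2 change was 3.21 ± 0.71, and it did not pass (adjusted p = 0.166, with 191 genes or 0.969% called). The E16.5 and P6 captures are all of the second sequencing series and those of E10.5, E11.5 and E13.5 all of the first, so E16.5 against E13.5 crosses series and the series term rests on the E12.5 captures, of which 1 is of the second series and the shallow one is among the 2 of the first. In that comparison the log2 change of Cdkn1a was 0.98 (adjusted p = 0.864), and 1.28 without the series term, and the series and these stages cannot otherwise be told apart. Over the 6 stages, Cdkn1a had an adjusted p of 0.0659 in limma's F test, and 271 genes (1.37%) were called.

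Cdkn2c (chromosome 4, 109660876 to 109667189, minus strand) was detected in 23 cells in all. At P6 its capture means were 0.576 and 7.84 RPKM and 9.09% and 12.12% of cells of the captures reached 1 RPKM. In the 10 captures of the earlier stages its mean lay between 0.0 and 0.863 RPKM, with at most 2 cells detected in any 1 capture. At P6 against E16.5 its log2 change was 1.65 ± 0.76, which did not pass (adjusted p = 0.606).

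Cdkn2d (chromosome 9, 21288410 to 21291407, minus strand) showed no order over stages. Its capture means were 8.75 RPKM for E10.5, 12.01 and 7.13 for E11.5, 17.3, 43.9 and 25.4 for E12.5, 6.37 and 21.8 for E13.5, 12.8 and 4.04 for E16.5, and 13.6 and 9.69 for P6. The highest of these is the shallow second E12.5 capture, where 1 cell at 1109 RPKM gave 47.69% of the sum. At P6 a single cell gave 62.33% and 55.68% of the sum, and without it the P6 means were 5.23 and 4.36 RPKM. The share of cells at 1 RPKM or more was 7.27% and 7.58% at P6, against 18.18% and 17.5% at E16.5. How many of all genes fell likewise in share was not counted. In level, a different measure, 17% of the genes tested lay lower in both P6 captures than in both E16.5 captures. Cdkn2d was not among them, since its first P6 capture, at 13.6 RPKM, lay above both E16.5 captures. None of the 4 stage comparisons called Cdkn2d, including E16.5 against E13.5, where 104 genes (0.528%) were called.

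**Figure D1:**
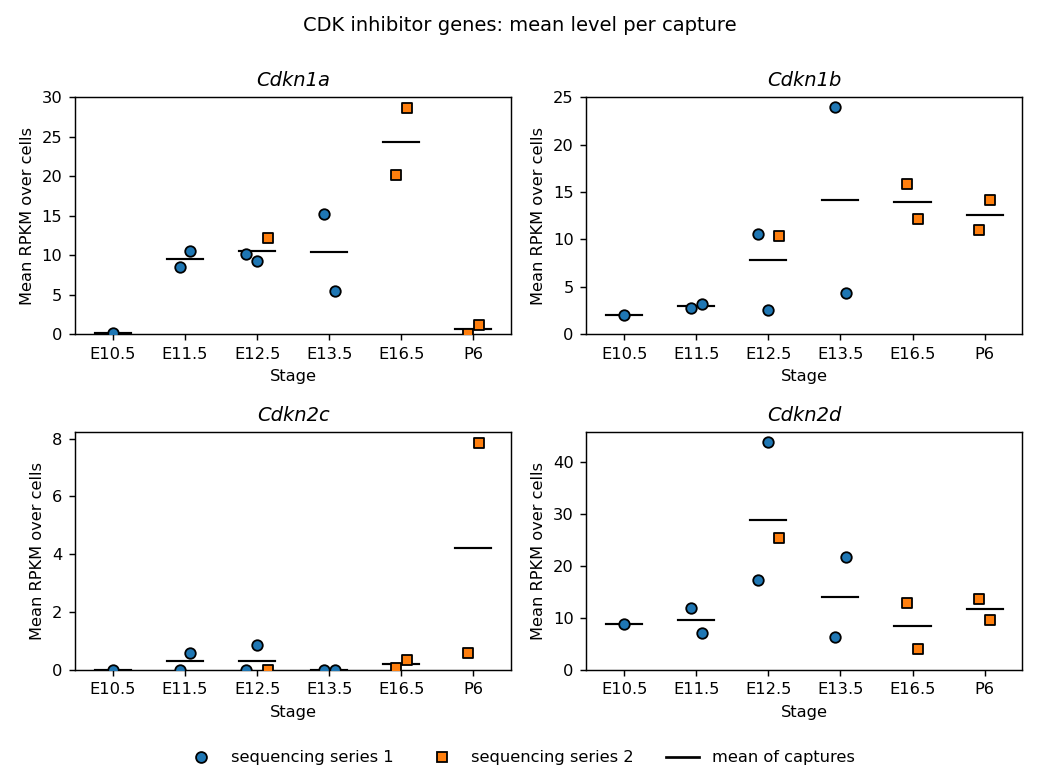
Mean RPKM over the cells of each capture (points, coloured by sequencing series) for 4 CDK inhibitor genes at 6 stages, with the mean of captures as a bar. Cdkn1a is highest at E16.5 (20.2 and 28.7 RPKM) and near 0 at P6 and E10.5, and Cdkn2c is near 0 before P6.

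**Figure D2:**
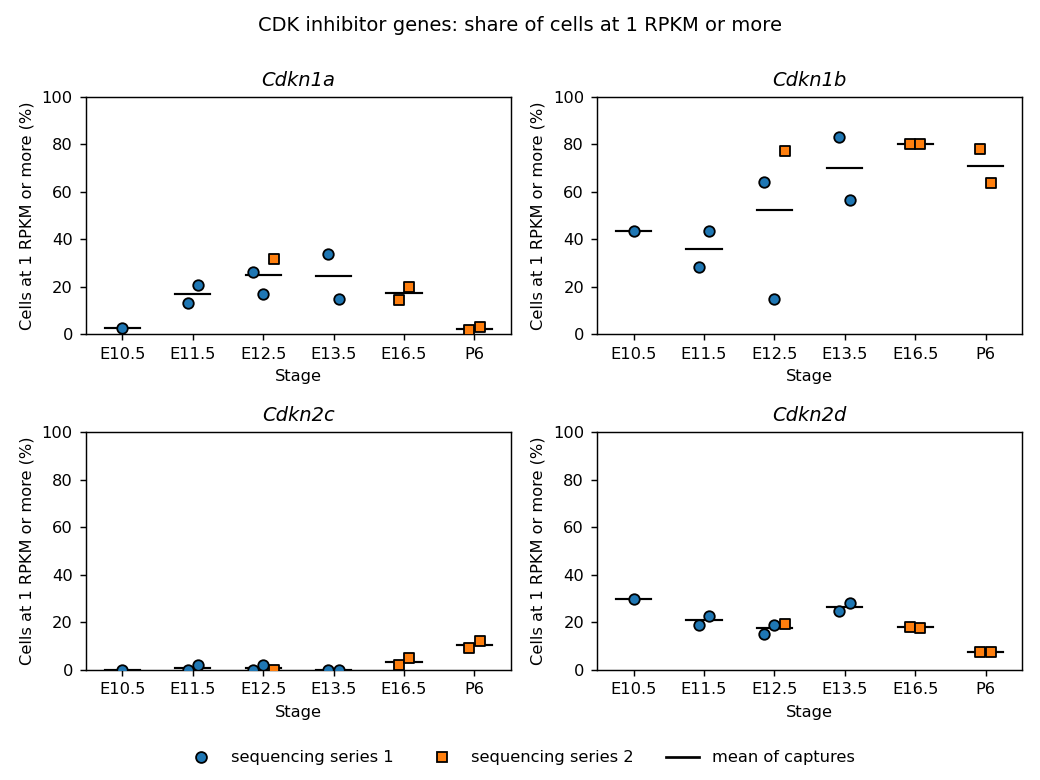
Percentage of cells at 1 RPKM or more in each capture, for the same genes and stages, with the mean of captures as a bar. Cdkn1b reaches 80% in each E16.5 capture, while Cdkn1a stays at or below 33.96% in every capture.

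The capture profiles most like those of the members were found among 8798 genes over 12 captures, which share stage and depth. They are given as descriptions. For Cdkn1a the highest Pearson r was 0.938 with Wnt5a, a signalling ligand gene of the stroma, then 0.930 with Dclk1 and 0.928 with Ap5s1. For Cdkn1b it was 0.943 with the homeobox gene Rhox8, then 0.928 with Serpinb1a and 0.918 with Layn. For Cdkn2d it was 0.903 with Safb2, then 0.884 with Rpl18 and 0.877 with Rps9, which encode ribosomal proteins.

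Cycling cells were taken as those with both Mki67 and Top2a, proliferation genes of dividing cells, at 1 RPKM or more, and non-cycling cells as those with both below it. There were 154 cycling and 384 non-cycling cells, and 124 cells had 1 of the pair. The classes were compared within the 10 captures that held at least 5 cells of each, which leaves out both E16.5 captures. Of 17368 genes tested in limma, 345 (1.99%) passed, 252 higher (1.45%) and 93 lower (0.535%) in cycling cells. None of the members was called.

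All 13 mitosis genes rose, among them Plk1, a mitotic kinase, at 55.1 ± 41.6 RPKM in cycling and 0.172 ± 0.179 in non-cycling cells (SD, n = 10 captures). All 12 replication genes had a log2 change above 0, with a median of 1.30 (over all genes -0.18), and 6 were called. Among those called, Rrm2, a ribonucleotide reductase subunit, was at 206 ± 128 RPKM in cycling and 18.2 ± 19.5 in non-cycling cells. The 5 genes listed with the E and A cyclins and Cdk2 all had a log2 change above 0, and 1 was called, Ccna2, the S and G2 phase cyclin. Of 9 p27 turnover genes, 4 had a log2 change above 0 and 5 below. The 1 called was Cks1b, a cofactor in p27 breakdown (log2 change 1.54 ± 0.17, adjusted p = 7.12e-05). None of the 5 cyclin D genes and their kinases was called.

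Cdkn1a was lower in cycling cells in 8 of 10 captures, a pattern that was not counted over all genes. It averaged 2.51 ± 2.88 RPKM in cycling cells and 9.91 ± 7.38 in non-cycling cells (SD, n = 10 captures), a log2 change of -1.47 ± 0.45. It did not pass (adjusted p = 0.134), and the adjusted p lay between 0.0904 and 0.630 over the alternatives. At E11.5 it was 3.28 and 1.48 RPKM in cycling cells, against 12.1 and 18.2 in non-cycling cells. At E13.5 it was 5.22 and 0.633 RPKM in cycling cells, against 18.98 and 7.39 in non-cycling cells. The captures in which it was higher in cycling cells were the E10.5 one and the first at P6, where both classes lay under 0.3 RPKM. The classes were unequal in size, with 51 cycling against 5 non-cycling cells at E10.5. In the third E12.5 capture Cdkn1a was at 0 in the 5 cycling cells, against 43 non-cycling cells at 13.85 RPKM. The median log2 change over all genes was -0.18. The part of class size in the Cdkn1a difference was not tested.

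Cdkn2c was higher in cycling cells in both P6 captures, at 3.29 and 32.2 RPKM in cycling cells, against 0.0397 and 1.24 in non-cycling cells. In the second of these, 1 cycling cell at 196.1 RPKM gave 37.91% of the sum over all cells of the capture. At least 1 RPKM was reached in 44.44% and 40% of the 9 and 10 cycling cells, against 2.78% and 4.55% of the 36 and 44 non-cycling cells. Both classes stood at 0 in 5 of the 10 captures. Over all 10 captures its log2 change was 0.95 ± 0.39 and did not pass (adjusted p = 0.306).

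Cdkn1b and Cdkn2d did not pass either. Cdkn1b averaged 7.24 ± 3.28 RPKM in cycling cells and 9.19 ± 8.53 in non-cycling cells (SD, n = 10 captures), with a log2 change of 0.16 ± 0.44 (adjusted p = 0.909) that turned to -0.22 without the E10.5 and second E12.5 captures. It was higher in cycling cells in 4 of 10 captures, among them the first at E11.5 (8.31 RPKM in cycling and 1.03 in non-cycling cells) and the second at E12.5 (6.46 in cycling and 0.332 in non-cycling cells), and lower in the other 6. It was lower in cycling cells in both P6 captures, at 7.61 and 10.2 RPKM, against 13.96 and 17.4 in non-cycling cells. Cdkn2d averaged 11.9 ± 7.81 RPKM in cycling and 17.8 ± 13.7 in non-cycling cells, with a log2 change of -0.54 ± 0.56 (adjusted p = 0.706). Rank correlations within captures with Mki67 or Top2a, computed for Cdkn1a, Cdkn1b and Cdkn2d, had medians between -0.146 and 0.092 over 12 captures. Single captures ranged from -0.327 (Cdkn1b with Mki67) to 0.429 (Cdkn1b with Top2a). Cdkn2d with Top2a was below 0 in 2 of 12 captures and Cdkn1a with Mki67 in 9 of 12.

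Among related genes fixed in a list, Cdkn1c, which encodes the Cip/Kip protein p57, fell in cycling cells, at 343 ± 546 RPKM against 579 ± 616 in non-cycling cells (SD, n = 10 captures; log2 change -0.93 ± 0.20, adjusted p = 0.0225). It was lower in 9 of 10 captures. The shallow second E12.5 capture held 1876 RPKM in cycling and 2226 in non-cycling cells, and without it the means were 172 ± 91.2 RPKM in cycling and 396 ± 223 in non-cycling cells (SD, n = 9 captures; adjusted p = 0.0261). The call was lost in 11 of 19 settings: without the replicate block (adjusted p = 0.702), with a class threshold above 0 (0.666), with log2 values averaged over cells (0.115), without the filter on low values (0.111), without both E10.5 and the second E12.5 capture (0.0598), and without any one of 6 captures (up to 0.0668). Cdkn3, a phosphatase gene named as a CDK inhibitor, rose (log2 change 3.56 ± 0.61, adjusted p = 0.00355). Of 11 tested repressors of the Cdkn2a locus, 6 had a log2 change above 0 and 1 was called. This was Ezh2, the Polycomb histone methyltransferase gene (43.5 ± 19.8 RPKM in cycling and 19.7 ± 9.28 in non-cycling cells, adjusted p = 0.0124). Its call was lost in 3 of 19 settings, with an adjusted p of up to 0.358 with a class threshold above 0. Of 17 Rb, E2F and MuvB genes, 14 had a log2 change above 0 and 1 was called. This was E2f8, an atypical E2F repressor gene (adjusted p = 0.0193), with the call lost in 4 of 19 settings (up to 0.0843 without the filter on low values). Cycling cells had more detected genes than non-cycling cells in 9 of 10 captures. The 10 supporting cell markers summed to less in cycling cells in 10 of 10 captures, at 11.8 to 211 RPKM, against 39.3 to 320 in non-cycling cells. The part of either in the differences of Cdkn1a, Cdkn1c and Cdkn2c was not tested.

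**Figure D3:**
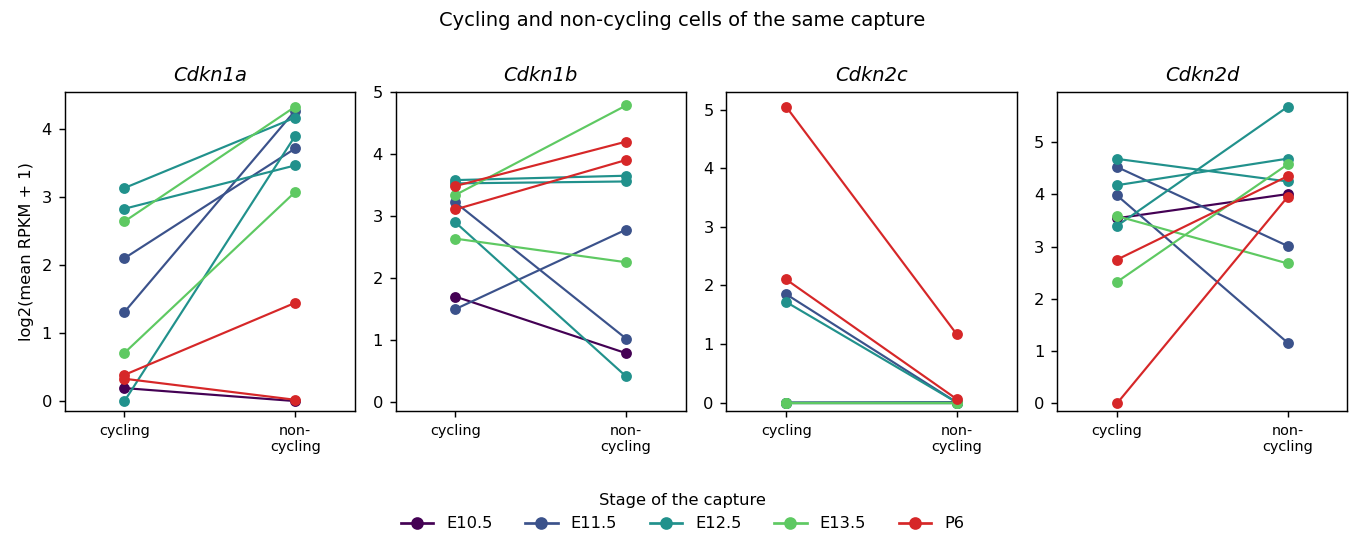
log2(mean RPKM + 1) of 4 CDK inhibitor genes in cycling (left) and non-cycling (right) cells, each line joining the classes of 1 capture, coloured by stage. Cdkn1a lines lie higher on the right in 8 of 10 captures, and Cdkn2c lies higher on the left in both P6 captures.

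Cells with and without Cdkn1a were set side by side in an added comparison, chosen after the data were seen, over 9 captures. Cells at 1 RPKM or more held 67.8 ± 42.4 RPKM and the rest 0.0201 ± 0.0172, which is how they were chosen. Of 17129 genes tested in limma, 131 (0.765%) passed, 22 higher (0.128%) and 109 lower (0.636%) in Cdkn1a-positive cells. Aurkb, a mitotic kinase gene, fell to 1.80 ± 3.63 RPKM in Cdkn1a-positive cells, against 9.83 ± 7.27 in the rest (log2 change -2.21 ± 0.45, adjusted p = 0.0422), and Rrm2 fell likewise (-2.39 ± 0.51, adjusted p = 0.0487). The call for Aurkb was lost without any one of 8 of the captures, with an adjusted p of up to 0.109, and that for Rrm2 without any one of 8, with up to 0.0976. All 13 mitosis genes had a log2 change below 0 with a median of -1.62 (over all genes -0.25), of which 1 was called, and 0 of 13 tested p53 genes and targets were called.

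Cdkn2d was lower in Cdkn1a-positive cells in 8 of 9 captures, at 6.74 ± 10.3 RPKM against 19.2 ± 14.4 in Cdkn1a-negative cells (SD, n = 9 captures). Its log2 change was -2.05 ± 0.49 and did not pass (adjusted p = 0.0756, between 0.0578 and 0.161 without single captures). The captures held 7 to 18 Cdkn1a-positive cells each, against 32 to 47 Cdkn1a-negative ones. How many of all genes were lower in as many captures was not counted. The part of the unequal class sizes in the differences of Cdkn2d, Aurkb and Rrm2 was not tested. By share, over all cells, 21 of 106 Cdkn1a-positive cells (19.81%) and 105 of 556 Cdkn1a-negative cells (18.88%) reached 1 RPKM of Cdkn2d. Cdkn1b was at 8.85 ± 8.52 RPKM in Cdkn1a-positive cells and 9.50 ± 6.84 in Cdkn1a-negative cells.

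For the lineage comparison, cells with Foxl2 and without Nr2f2 were too few: 24 cells in all, and 2 captures with at least 5. In those, limma called 0 of 11068 genes (0%), with 1314 at an unadjusted p under 0.05. Foxl2-positive cells are therefore taken below as those with Foxl2 at 1 RPKM or more, whatever Nr2f2, and Nr2f2-positive cells as those with Nr2f2 at 1 RPKM or more and Foxl2 below it, classes added after the data were seen. They held 149 and 484 cells over all 12 captures, and were compared in 8 captures from E12.5 to P6. Of the 149, 24 were without Nr2f2 at 1 RPKM. At P6, 31 of 34 and 32 of 41 Foxl2-positive cells also had Nr2f2 at 1 RPKM or more. Over all Foxl2-positive cells of the P6 captures Nr2f2 averaged 114 and 241 RPKM, against 156 and 245 in Nr2f2-positive cells. The P6 classes thus part cells by Foxl2 more than by Nr2f2. Leaving out Foxl2, which defines the class, the other 9 supporting cell markers summed to 156 to 468 RPKM in Foxl2-positive cells, against 75.4 to 188 in Nr2f2-positive cells, and to more in Foxl2-positive cells in 8 of 8 captures. Single markers varied: Irx3, an Iroquois homeobox gene, was higher in 8 of 8 captures, Wnt4 and Kitl, ligand genes of the supporting lineage, in 7 of 8 each, and Irx5 in 5 of 8. Hsd17b1 was higher in 2 captures and lower in 3, and Amh was higher in 1 and lower in 1. Both classes were at 0 for these 2 genes in the rest. Of the stroma markers, Pdgfra, Col1a1 and Lum were lower in Foxl2-positive cells in 8 of 8 captures. Col3a1, Tcf21 and Mfap4 were lower in 7 of 8 each, and Wnt5a in 6 of 8. Maf and Dcn were each lower in 5 of 8 captures and higher in 3. Dcn was at 404 RPKM in Foxl2-positive cells of the second E16.5 capture and 606 and 1134 at P6, against 189, 473 and 970 in Nr2f2-positive cells. The Foxl2-positive class thus also held transcripts of a stroma gene.

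Cdkn1b was higher in Foxl2-positive cells in 8 of 8 captures. At E12.5 it was 21.1 and 18.01 RPKM in Foxl2-positive cells of the well-sequenced captures, against 8.72 and 9.25 in Nr2f2-positive cells. At E13.5 it was 34.7 and 6.66 RPKM in Foxl2-positive cells, against 18.1 and 3.59 in Nr2f2-positive cells. At E16.5 it was 28.2 and 18.1 RPKM in Foxl2-positive cells, against 10.0 and 9.55 in Nr2f2-positive cells.

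At P6 Cdkn1b was 14.8 and 17.9 RPKM in Foxl2-positive cells, against 5.02 and 7.04 in Nr2f2-positive cells. The difference thus had 1 direction at every stage, and at E13.5, where the captures differ most in level, it held within each. Over 8 captures its log2 change was 1.08 ± 0.29, or 19.9 ± 8.46 RPKM in Foxl2-positive and 8.91 ± 4.36 in Nr2f2-positive cells (SD, n = 8). It did not pass over 16754 genes (adjusted p = 0.272), where 5 genes (0.0298%) were called, and 89 genes (0.531%) were higher in every capture.

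The log2 change lay between 1.01 and 1.25 over 18 settings, among them non-cycling cells alone (1.17) and classes by whichever of Foxl2 and Nr2f2 was higher (1.199). The adjusted p was 0.0176 when log2 values were averaged over cells, and between 0.272 and 0.496 otherwise. More genes were detected in Foxl2-positive cells in 8 of 8 captures, and the summed stress genes of dissociation were lower in them in 8 of 8. So was the sum of 4 endothelial markers, at 0.0889 to 6.42 RPKM in Foxl2-positive cells, against 2.28 to 30.4 in Nr2f2-positive cells. The sum of the 9 stroma markers other than Nr2f2, which defines the other class, was also lower in 8 of 8. It was at 47.01 to 2033 RPKM in Foxl2-positive cells, against 338 to 2866 in Nr2f2-positive cells. The 3 testis supporting markers summed to more in Foxl2-positive cells in 7 of 8 captures, at 0.356 to 31.4 RPKM, against 0.630 to 7.99 in Nr2f2-positive cells. This holds for the sum and not for each marker: Sox9 was lower in Foxl2-positive cells in both P6 captures. The part of these in the Cdkn1b difference was not tested.

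None of the other members passed in the lineage comparison. Cdkn1a had a log2 change of 0.65 ± 0.54 (adjusted p = 0.718), which was 0.14 without the first E16.5 capture, where it was at 46.3 RPKM in Foxl2-positive cells against 1.505 in Nr2f2-positive cells. Cdkn2d had one of 0.57 ± 0.59 (adjusted p = 0.792) and Cdkn2c one of 0.20 ± 0.26. With classes by the higher of Foxl2 and Nr2f2, Cdkn1a turned to -0.37, Cdkn2c to -0.45 and Cdkn2d to -0.12. The difference between lineages at P6 against that at E16.5 was called for 0 of 16754 genes in limma (1392 at an unadjusted p under 0.05), and was 0.18 ± 0.87 for Cdkn1b.

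**Figure D4:**
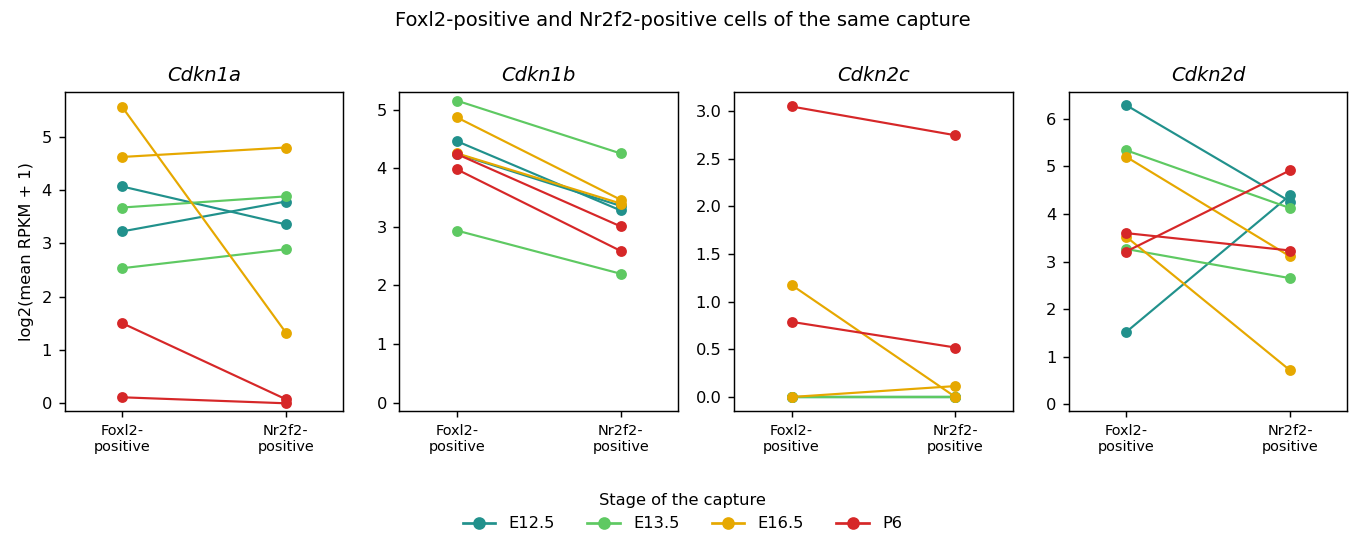
log2(mean RPKM + 1) of 4 CDK inhibitor genes in Foxl2-positive (left) and Nr2f2-positive (right) cells, each line joining the classes of 1 capture, coloured by stage. Every one of the 8 Cdkn1b lines lies higher on the left.

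The share of cycling cells was 8.51% ± 8.47 in Foxl2-positive cells and 16.1% ± 10.0 in Nr2f2-positive cells (SD, n = 8 captures). It was lower in Foxl2-positive cells in 6 of 8 captures, and did not pass the exact two-sided sign-flip permutation test (p = 0.156, smallest possible 0.00781). None of the 12 replication genes was called in the lineage fit, though all 12 had a log2 change below 0, with a median of -0.87 (over all genes -0.12). The 13 mitosis genes were mixed, with 4 above 0 and 9 below, a median of -0.583 and 0 called.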

How the data were processed

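The authors' deposited table held 1 RPKM value per gene and cell for 663 libraries, and RPKM is reads scaled by gene length and library size. The unit was read from the values: a median of 72.5% of low values per cell, up to 6.5 reads, lay within 0.02 of whole reads, so counts were not recovered and depths are estimates. Per the submitters' processing notes the build was GRCm38.p3 (mm10), and the aligner, the counter and any use of strand were not given in the sources used here. Of 43347 names, 27 turned into dates were left out. A repeat library (r = 0.996) was averaged with its cell. No doublet caller was run. Reads carry no molecular identifiers, so limits cover counting error only.

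Log2(mean RPKM + 1) per capture, or per class and capture with at least 5 cells a class, was fitted with limma 3.58.1 (R 4.3.3, intensity trend), for genes at 1 RPKM or more in at least 1 capture, or in at least 2 class means. This scale understates the change of low genes. Stage fits held stage and sequencing series (5 residual degrees of freedom), which the E12.5 captures alone tie together, and class fits held the capture as a block, since both classes come from the same chip run. P-values were adjusted by Benjamini-Hochberg over all genes tested and called at 0.05. Tests on simulated data gave 5.84% (stage), 5.24% (cycling) and 5.18% (lineage) of unchanged genes an unadjusted p under 0.05. Alternatives were other pseudocounts, scalings, filters, thresholds and left-out captures. The members, gene lists and tests were chosen with earlier results of these data known. Named genes were the members, up to 3 called genes per list with the lowest adjusted p, and the 3 most alike in profile. Positions come from GENCODE vM21, an annotation of GRCm38.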

Additional observations from a re-analysis of the deposited data

Results flagged for a closer look

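Among 8 sets of within-capture differences tested for a lone extreme capture, 3 had one, and chance flags about 1 in 20. The log2 difference of Cdkn2c between cycling and non-cycling cells was 3.89 in the second P6 capture, which held 1 cycling cell at 196.1 RPKM. This was the highest of 10 captures, of which 4 had more Cdkn2c in cycling cells. That of Cdkn1a between Foxl2-positive and Nr2f2-positive cells was 4.24 in the first E16.5 capture, far above the other 7. That of Cdkn2c between Foxl2-positive and Nr2f2-positive cells was 1.18 in the second E16.5 capture.

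In other cases all captures of a pair of stages moved in opposite directions, and these differences were not tested. The log2 difference of Cdkn2d between cycling and non-cycling cells averaged -2.78 at P6 and 2.17 at E11.5. That of Cdkn1a between Foxl2-positive and Nr2f2-positive cells averaged 0.77 at P6 and -0.28 at E13.5. At P6, however, Cdkn1a reached 1 RPKM in only 3 of 121 cells. A single cell gave 83.03% and 95.85% of its sum in the P6 captures, and 62.33% and 55.68% of that of Cdkn2d.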

How the results depend on the processing

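No planned setting called Cdkn1b, Cdkn2c or Cdkn2d in a stage or cycling comparison. Over 776 values of members and named list genes under alternatives, 703 kept their direction and side of the threshold, 36 calls were lost, 7 were gained and 30 signs turned. The lost calls were all of list genes. The only member called under the main setting was Cdkn1a, in the comparison that chose its cells by Cdkn1a. That call was fixed by the choice, held in all 10 settings, and is counted among the 703. The gains beyond those in the report were in the F test over stages for Cdkn1a (adjusted p = 0.0310 without the filter, 0.0394 without the series term, 0.0493 without the first E12.5 and 0.0465 without the second E13.5 capture). The cause of these shifts was not tested.

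Averaging log2 values over cells called 445 genes at E11.5 against E10.5, 6 at E13.5 against E11.5, 0 at E16.5 against E13.5, 128 at P6 against E16.5, 489 in the F test, 655 for cycling and 198 for lineage. No filter called 1003, 48, 568, 102 and 1509 in the stage fits in that order, 1 for lineage and 10 for the lineage difference. No series term gave 95 at E11.5 against E10.5 and 0 at E16.5 against E13.5, a pseudocount of 0.1 gave 45 there, and 1 series alone gave 0 at P6 against E16.5. A fit with neither the series term nor the second E12.5 capture, added after the data were seen, gave 1 at E13.5 against E11.5. A class threshold above 0 gave 194 for cycling. For lineage, equal totals gave 9, non-cycling cells 3 and classes by the higher gene 36.

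The paired fits used the capture as a block. With no replicate block, 257 genes were called for cycling and 2 for lineage. Stages could not be paired, since capture numbers tie no stages together. Without single captures, counts ran from 73 to 388 at E11.5 against E10.5, 0 to 219 at E13.5 against E11.5, 0 to 786 at E16.5 against E13.5, 19 to 369 at P6 against E16.5, 264 to 1412 in the F test, 276 to 338 for cycling, 1 to 13 for lineage, 17 to 104 for Cdkn1a-positive cells, and stayed at 0 for the lineage difference. The difference in cycling share ran from -10.69 to -4.62 percentage points (p = 0.0469 without the second E16.5 capture). A left-out capture can leave a stage with 1 capture, then assumed to vary like the others. The planned lineage classes, with 2 captures, were not run under alternatives, nor was the E10.5 capture left out of its own comparison.

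Signs turned for changes that had not passed. Averaged log2 values gave -0.055 for Cdkn1b and -0.35 for Cdkn2d at E11.5 against E10.5, 0.26 for Cdkn1a at E13.5 against E11.5, -0.33 for Cdkn1a at E16.5 against E13.5, -0.45 for Cdkn2d at P6 against E16.5, 0.28 for Cdkn2d in cycling cells and -0.62 for Cdkn1b in the lineage difference. Without the series term Cdkn1b gave 0.37 at E16.5 against E13.5. Without E10.5 and the second E12.5 capture it gave -0.22 for cycling. Lineage classes by the higher gene gave -0.37 for Cdkn1a, -0.45 for Cdkn2c and -0.12 for Cdkn2d.

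Without single captures, signs turned within these ranges. For Cdkn2d they were -0.26 to 0.42 at E11.5 against E10.5, -0.48 to 1.15 at E13.5 against E11.5, -1.33 to 0.30 at E16.5 against E13.5 and -0.14 to 1.31 at P6 against E16.5. For Cdkn1b they were -1.56 to 0.67 at E16.5 against E13.5, -0.32 to 0.035 at P6 against E16.5, -0.095 to 0.34 for cycling and -0.092 to 0.46 for the lineage difference. For Cdkn1a they were -0.68 to 0.64 at E13.5 against E11.5 and -3.47 to 0.95 for the lineage difference, where Cdkn2c had -0.89 to 0.40.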
